A study of Mus musculus with 10 samples.

Results

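Il6ra, Il6st, Stat3, Socs3, Lif and Osm are 6 genes of interleukin-6 (IL-6) family signalling, and their RNA was followed here across 10 groups of mouse CD4 T cells, each measured on 1 array. The members are the genes of this family named for this work, with the probe sets annotated to each of them alone. They were chosen by their levels and differences in these same arrays, so the values below describe them and the choice is no evidence of any pattern. There are 6 members among 18194 genes that had a probe set of their own, and 16 member probe sets among 45101 probe sets. For each gene the probe set of highest mean over the 10 arrays was used, and its other probe sets served as a check. All 6 members passed the filter on dim genes, which kept 11939 genes.

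Cytokines of the IL-6 family signal through gp130, the shared receptor chain encoded by Il6st. IL-6 first binds its own receptor chain, encoded by Il6ra, either on the membrane or shed from it, while leukaemia inhibitory factor (Lif) and oncostatin M (Osm) use gp130 together with a second chain. Janus kinases bound to gp130 then phosphorylate the transcription factor STAT3, which enters the nucleus and induces, among others, Socs3, whose product binds gp130 and ends the signal. In CD4 T cells the pathway is known for favouring Th17 and follicular helper programmes, while IL-6 opposes the induction of Foxp3, the factor that marks regulatory T cells.

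The promoters of Lif and Socs3 are shown because these genes are the ligand and the target in the set whose promoter windows held one of the motifs searched. RefSeq promoter windows of the build GRCm38.p6, which run from 250 bases before to 50 bases after the start, were matched for 5 of the 6 members, Osm being named only. The motifs were the STAT site TTCNNNGAA, the AP-1 site TGANTCA and the cAMP response element TGACGTCA, each of which reads the same on both strands. Capitals mark the match.
Lif, chr11:4257318-4257617, plus strand: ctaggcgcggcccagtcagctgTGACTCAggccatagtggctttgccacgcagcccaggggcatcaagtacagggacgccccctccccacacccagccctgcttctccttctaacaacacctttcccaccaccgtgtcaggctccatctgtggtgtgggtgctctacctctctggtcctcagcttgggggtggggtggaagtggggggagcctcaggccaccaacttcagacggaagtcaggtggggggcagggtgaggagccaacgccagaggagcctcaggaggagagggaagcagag
Socs3, chr11:117969317-117969616, minus strand, written along the gene: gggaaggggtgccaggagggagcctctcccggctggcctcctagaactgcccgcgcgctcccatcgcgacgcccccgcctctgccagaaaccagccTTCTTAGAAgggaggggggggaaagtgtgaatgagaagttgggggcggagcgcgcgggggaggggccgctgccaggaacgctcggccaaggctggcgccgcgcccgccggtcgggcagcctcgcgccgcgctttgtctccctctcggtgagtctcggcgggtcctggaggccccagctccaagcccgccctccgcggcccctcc
The Lif window holds TGACTCA, a match to the AP-1 motif that begins at position -228 from the start, as do 7.81% of the 32851 promoters of the same length in the table. The Socs3 window holds TTCTTAGAA, a match to the STAT motif that begins at position -154, as do 8.3% of those promoters. The cAMP response element was in none of the 5 windows searched and in 1.79% of all promoters. A match describes letters in a window and not binding.

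The study asked what Foxp3 and PDE3B, a phosphodiesterase that breaks down cAMP, do to gene expression in peripheral CD4 T cells. All cells came from pooled lymph node and spleen of female mice 6 to 8 weeks old. GFPko cells were the GFP+ CD4+ cells of gfpko/wt females (C57BL/6, backcross 5 from 129/Sv), in which the X-linked gfpko allele makes green fluorescent protein (GFP) in place of Foxp3, so these cells read the locus without making the factor. GFPfoxp3 cells were the GFP+ CD4+ cells of gfp/gfp females (C57BL/6, backcross 8 to 10 from 129/Sv), whose knock-in allele makes a GFP-Foxp3 fusion. CD25pos and CD25neg cells were the GFP- CD4+ cells of gfp/gfp females with and without CD25, a chain of the receptor for IL-2. For GFPko, GFPfoxp3 and CD25pos there was a second array of cells from mice that had received IL-2, 4 injections of 50 ng per g inside 24 h, and that were isolated 30 min after the last one. Whether the untreated mice were given the vehicle is not stated in their labels. The GFPko mice differed from the others in backcross as well as in allele, and these cannot be told apart.

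For the other 3 groups, CD25+ CD4+ cells of C57BL/6 mice were stimulated through CD3 and CD28 in culture with IL-2 at 100 U/ml and transduced on days 1 and 2 with the retroviral vector MigR1. The vector carried PDE3B with the substitution H801A (MigR1_PDE3B_H801A), PDE3B (MigR1_PDE3B) or no insert (MigR1_empty). The cells were mixed with transduced CD25- CD4+ cells of B6.SJL mice, which bear Ly5.1, and passed into recipients lacking T cell receptor alpha. After 3 weeks, CD4+ cells positive for GFP and GITR and negative for Ly5.1 were sorted. GITR is a receptor of the TNF receptor family that regulatory T cells carry in quantity. All 3 groups thus shared activation, viral transduction and transfer into a host without its own alpha beta T cells.

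The arrays had medians of 3.04 to 3.22 on the deposited log2 scale, and a value below its own array's median was taken as not above background. T cell markers (Cd3e, Cd3g, Cd2 and Cd4) were above it on every array. Foxp3 RNA was 8.33 to 9.39 on the 2 GFPko arrays, 10.86 on both GFPfoxp3 arrays and 2.45 to 3.90 in CD25pos and CD25neg cells. Where the Foxp3 probe set lies relative to the inserted GFP is unstated in the labels, so its signal in GFPko cells does not check the allele. Pde3b RNA was 7.54 with MigR1_PDE3B_H801A and 6.91 with MigR1_PDE3B, against 7.43 with MigR1_empty. The MigR1_PDE3B_H801A array was thus 0.11 above and the MigR1_PDE3B array below the empty vector. Whether the probes cover the sequence in the vector is unknown, and these arrays are named here by label only. The 3′ minus 5′ difference of the Actb control probe sets, which grows as the labelled RNA becomes shorter, was 5.87 to 6.38 on the 3 transduced arrays and 2.70 to 3.80 on the 7 arrays of freshly sorted populations. Precision is limited by there being 1 array per group. In such bulk samples, fewer cells of a type and less RNA per cell cannot be told apart.

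The IL-6 receptor chain was transcribed in every group. Il6ra, read by the probe set 1452416_at, lay at 9.87 in GFPko cells after IL-2 and 9.74 in untreated GFPko cells, at 9.84 and 9.98 in GFPfoxp3 cells, and at 9.87 and 9.16 in CD25pos cells. It was 10.19 in CD25neg cells, the highest level of the 10. In transduced cells it was 8.91 with MigR1_PDE3B_H801A and 8.82 with MigR1_PDE3B, against 5.87 with MigR1_empty. The empty vector array thus lay 2.95 log2 units below the next level. The spread available for ordering these levels comes from the model over 6 arrays described below. It is the residual SD as moderated by limma towards a prior common to all genes, called the residual SD here. The CD25neg and transduced arrays were not in that fit. For Il6ra this SD was 0.232. The 6 highest levels followed each other in steps within that SD, whereas the step down to untreated CD25pos cells was 0.58. A second Il6ra probe set, 1422270_a_at, was not above background on any array.

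Il6st, the gp130 chain, varied over 0.91 log2 units among sorted cells at the probe set used, and over 1.34 at another, 1437303_at. The probe set 1452843_at gave 9.95 in GFPko cells after IL-2 and 10.28 without it, 10.07 and 10.40 in GFPfoxp3 cells, 9.49 and 9.63 in CD25pos cells, and 10.27 in CD25neg cells. The CD25pos arrays were the lowest of the sorted populations. Transduced cells gave 8.70 with MigR1_PDE3B_H801A, 9.07 with MigR1_PDE3B and 8.62 with MigR1_empty. The residual SD was 0.107, and among neighbouring levels only untreated GFPko and CD25neg cells, and H801A and empty vector cells, lay within it of each other.

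Stat3, the transcription factor that gp130 activates, had a narrow range among sorted populations at the probe set 1460700_at. Its level was 10.56 in GFPko cells after IL-2 and 10.29 without, 10.72 and 10.77 in GFPfoxp3 cells, 10.43 and 10.34 in CD25pos cells, and 10.36 in CD25neg cells. Transduced cells gave 9.31 with MigR1_PDE3B_H801A, 9.36 with MigR1_PDE3B and 9.58 with MigR1_empty. The 4 sorted levels from CD25pos after IL-2 down to untreated GFPko followed each other in steps within the residual SD of 0.123. The next step, from those down to the empty vector, was 0.71.

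Socs3, the feedback inhibitor that binds gp130, was higher in GFP+ than in GFP- sorted cells at the probe set used. The probe set 1455899_x_at gave 11.41 in GFPko cells after IL-2 and 11.92 without, and 11.74 and 11.40 in GFPfoxp3 cells. It gave 10.73 and 10.45 in CD25pos cells and 10.78 in CD25neg cells. All 4 arrays of GFP+ cells were therefore above all 3 arrays of GFP- cells. This held at 1416576_at too, but not at 1456212_x_at, where CD25neg cells, at 9.57, were level with GFPko cells after IL-2, also at 9.57, and with untreated GFPfoxp3 cells, at 9.59. The transduced cells, at 11.73 with MigR1_PDE3B_H801A, 11.63 with MigR1_PDE3B and 11.45 with MigR1_empty, lay in the range of the GFP+ sorted cells. Within the 7 highest levels no step exceeded the residual SD of 0.248, and the step below them was 0.62.

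Lif, the ligand that uses gp130 with the LIF receptor chain, had the widest range among sorted cells. The probe set 1421207_at gave 8.49 in GFPko cells after IL-2 and 5.42 without, 6.40 and 5.00 in GFPfoxp3 cells, 5.98 and 5.31 in CD25pos cells, and 3.64 in CD25neg cells. Transduced cells gave 4.53 with MigR1_PDE3B_H801A and 4.48 with MigR1_PDE3B, against 5.92 with MigR1_empty. GFPko cells after IL-2 stood 2.09 above the next level, while the 8 levels from GFPfoxp3 after IL-2 to MigR1_PDE3B followed each other in steps within the residual SD of 0.605. A second Lif probe set, 1450160_at, was not above background on any array.

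Osm, the ligand that lies beside Lif on chromosome 11 with no gene between them in the annotation, was read by the single probe set 1438767_at. It gave 8.75 in GFPko cells after IL-2 and 7.39 without, 7.93 and 6.79 in GFPfoxp3 cells, 6.73 and 6.48 in CD25pos cells, and 6.81 in CD25neg cells. Transduced cells gave 6.92 with MigR1_PDE3B_H801A and 7.03 with MigR1_PDE3B, against 7.46 with MigR1_empty. The 2 arrays of GFP+ cells after IL-2 held the highest levels of Osm. The 6 lowest levels, from MigR1_PDE3B down to untreated CD25pos cells, followed each other in steps within the residual SD of 0.302.

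**Figure D1:**
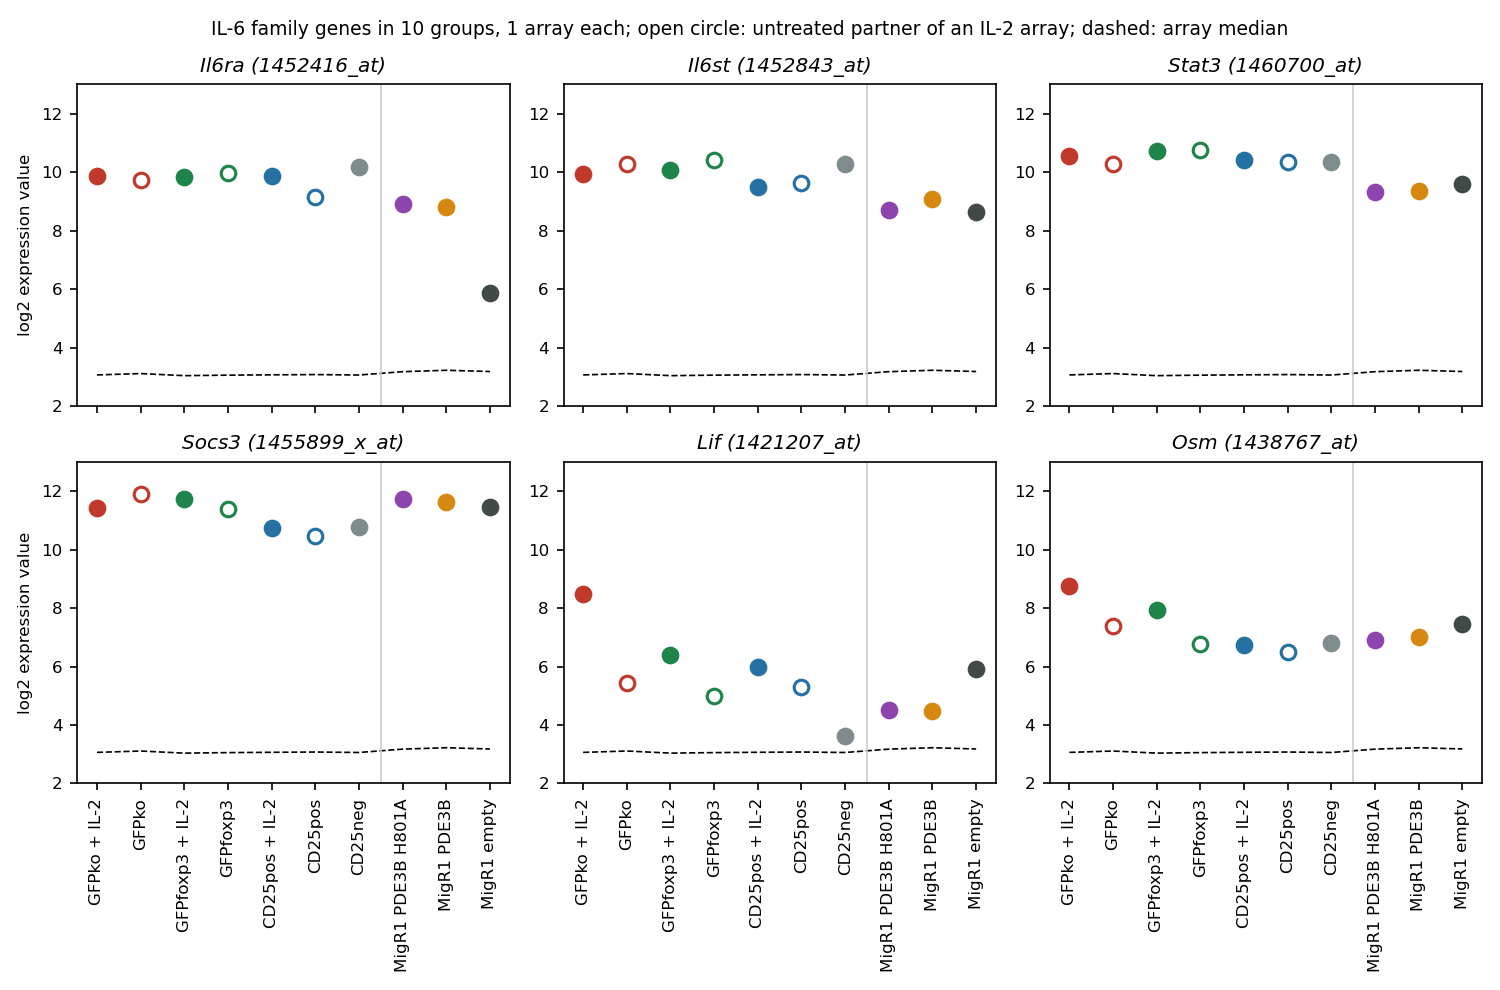
Log2 expression value (vertical axis) of each of the 6 genes on each of the 10 arrays (horizontal axis), 1 point per array, at the probe set used for the gene; open circles are the untreated partners of IL-2 arrays and the dashed line is the array median. Il6ra stands at 5.87 with the empty vector, and Lif at 8.49 in GFPko cells after IL-2.

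The probe sets of a gene did not all behave alike. For Il6st, the probe set 1437303_at was also above background, with 7.62 in GFPko cells after IL-2 and 8.70 without, and 4.83 with MigR1_empty, while 1460295_s_at varied only between 3.30 and 3.73 and 1421239_at was not above background on any array. Stat3 had 2 further probe sets well above the array medians. One of them, 1459961_a_at, ran against the one used, at 9.56 to 9.91 in transduced cells and 6.71 to 7.83 in sorted cells. Socs3 was also read by 1456212_x_at and 1416576_at. The first of these shared with the probe set used an identifier mark (x) for possible matches to other transcripts, and 1416576_at, which carries no such mark, was 5.83 to 6.98 in transduced cells and 6.99 to 8.78 in sorted cells. At 1416576_at the transduced cells were thus below all sorted cells, whereas at 1455899_x_at the ranges overlapped.

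**Figure D2:**
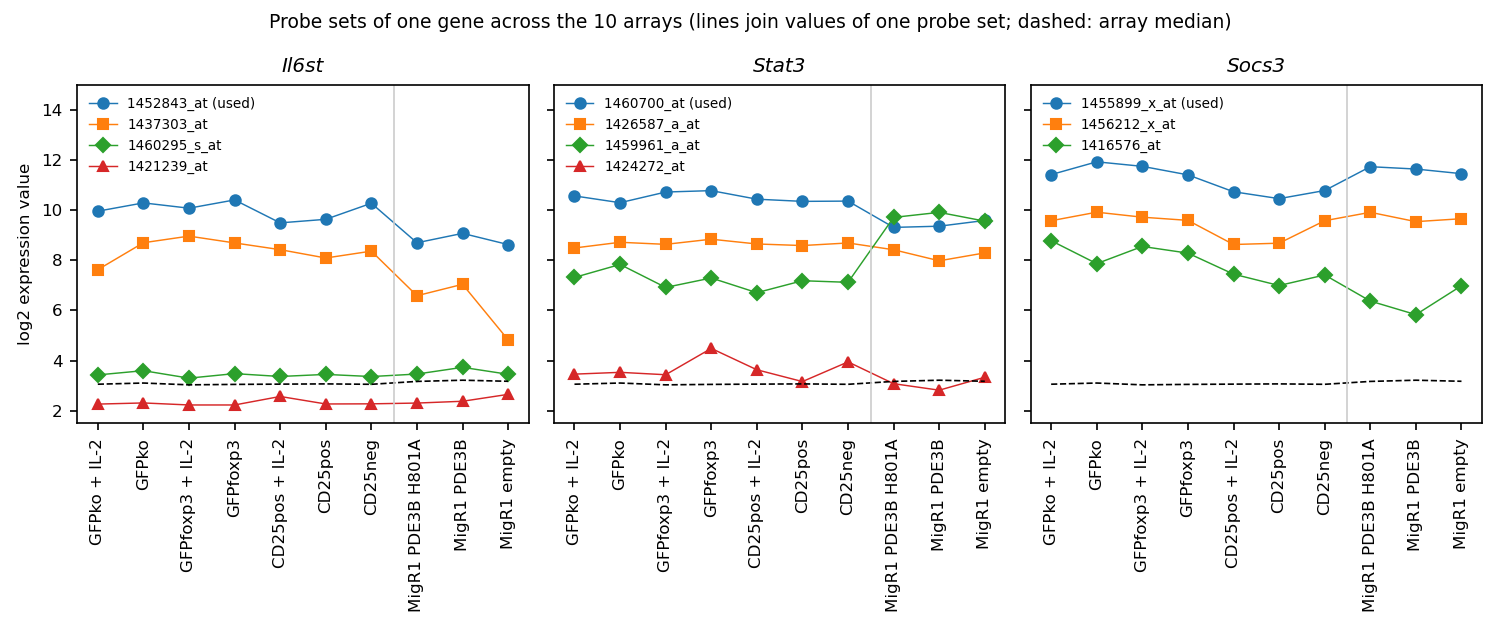
Log2 expression value (vertical axis) of every probe set of Il6st, Stat3 and Socs3 on the 10 arrays (horizontal axis), with lines joining the values of 1 probe set and a dashed line at the array median. The Stat3 probe set 1459961_a_at is at 9.56 to 9.91 in transduced cells, above its 6.71 to 7.83 in sorted cells, while the probe set used is lower in transduced cells.

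Differences between populations and after IL-2 were tested with limma over 6 arrays, those of GFPko, GFPfoxp3 and CD25pos cells in both IL-2 states, with population and IL-2 as additive terms. The only spread in this fit is the unevenness of the IL-2 response among populations. A small p-value therefore says that a difference was large beside this spread, pooled over all 6 arrays and moderated by limma. Such a p-value says nothing of repeats between mice. Benjamini-Hochberg adjustment ran over all 11939 genes, with calls under 0.05. The 3 population comparisons share arrays with each other.

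Between GFPko and GFPfoxp3 cells, which read the same locus without and with the protein, no member was called by limma. The count was 0 of 6 members, against 7.47% of all genes tested. It was also 0 at an unadjusted p under 0.05, against 26% of all genes, and 0 with an intensity trend and robust variance. Lif was 1.26 log2 units higher in GFPko cells (SE 0.605, adjusted p = 0.294), with differences of 2.09 after IL-2 and 0.42 without. Osm was 0.71 higher (SE 0.302, adjusted p = 0.244), with 0.82 after IL-2 and 0.61 without. The difference in Lif thus lay mostly between the arrays after IL-2, whereas that in Osm was similar in both states. Stat3 was lower in GFPko cells (log2 difference -0.32, SE 0.123, adjusted p = 0.209). The receptor chains differed by -0.11 for Il6ra and -0.12 for Il6st, and Socs3 by 0.10, with adjusted p-values of 0.807, 0.554 and 0.840. The median member difference was -0.01, as was that of all genes.

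GFPfoxp3 cells had more Il6st RNA than CD25pos cells, which lack Foxp3 but bear CD25. Il6st rose by 0.68 log2 units in GFPfoxp3 over CD25pos cells (SE 0.107, limma adjusted p = 0.0374), with differences of 0.58 after IL-2 and 0.77 without. It was the only call among the 6 members, where 8.73% of all genes were called. The second Il6st probe set above background, 1437303_at, was also higher in both states, at 8.96 and 8.69 in GFPfoxp3 cells against 8.42 and 8.09 in CD25pos cells, after IL-2 and without it. The call at the probe set used was lost without the filter on dim genes (adjusted p = 0.0538), with the mean of all Il6st probe sets (difference 0.26, adjusted p = 0.347) and when any one of the 6 arrays was left out (differences 0.58 to 0.77, adjusted p from 0.0605 to 0.278). The probe set used for Socs3 was 0.98 higher (SE 0.248, adjusted p = 0.0989), and the unmarked Socs3 probe set was 1.20 higher (adjusted p = 0.0362 in the fit without marked probe sets). Socs3 was also called with the mean of its probe sets (1.06, adjusted p = 0.0109), with arrays centred on their medians (0.97, adjusted p = 0.0485) and without either GFPko array or both (0.98, adjusted p = 0.0385). Stat3 and Osm were 0.36 and 0.75 higher, with adjusted p-values of 0.174 and 0.227, Il6ra 0.40 higher (adjusted p = 0.383) and Lif 0.06 (adjusted p = 0.966). The median member difference was 0.54, against -0.03 over all genes. Markers of other cells moved in the same comparison. Of 5 annotated B cell markers, 4 were kept and 3 rose in GFPfoxp3 cells, among them Cd74 by 2.88, with Ighm at 12.11 against 11.13. Ms4a1 was level, at 3.42 against 3.46, and Cd79a was not above background on any array. The mean of the B cell list was 6.43 and 6.34 on the GFPfoxp3 arrays against 4.91 and 4.98 on the CD25pos arrays. Of 5 annotated CD8 and NK cell markers, 4 were kept and 2 fell, with Klrd1 at 3.14 in GFPfoxp3 against 9.19 in CD25pos cells and Eomes at 4.26 against 8.96. Cd8a and Cd8b1 differed by -0.02 and -0.14 and were not called, and Ncr1 was not above background on any array. The mean of that list was 3.55 and 3.31 on the GFPfoxp3 arrays against 5.58 and 5.70 on the CD25pos arrays. Their part in the Il6st difference was not tested.

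Averaged over both IL-2 states, GFPko cells, which read the locus without the protein, differed from CD25pos cells most in Osm and Lif. Osm was 1.46 higher in GFPko cells (SE 0.302, limma adjusted p = 0.0950), by 2.02 after IL-2 and 0.91 without. Lif was 1.31 higher (adjusted p = 0.339), by 2.51 after IL-2 and 0.12 without. Socs3 was 1.07 higher (adjusted p = 0.114), by 0.68 after IL-2 and 1.47 without. Without IL-2 this was the largest difference of the 6 members at the probe sets used. Il6st was 0.56 higher (adjusted p = 0.0844), while Il6ra and Stat3 differed by 0.29 and 0.04, with adjusted p-values of 0.564 and 0.948. None of the 6 members was called, against 3.48% of all genes, and with an intensity trend and robust variance the count was again 0. An unadjusted p under 0.05 was found for 3 of 6 members and for 20.3% of all genes. When arrays were centred on their medians over kept genes, Osm (1.61, adjusted p = 0.0145), Socs3 (1.22, adjusted p = 0.0341) and Il6st (0.70, adjusted p = 0.0397) were called. That centring moves every gene of this comparison up by 0.14, because the medians of the GFPko arrays averaged 0.14 below those of the CD25pos arrays (log2 shift -0.14). With the mean of all probe sets in place of centring, Socs3 was called as well (1.09, adjusted p = 0.0211). Markers of other cells moved here too. Of 4 kept CD8 and NK cell markers 2 fell in GFPko against CD25pos cells. Cd8a and Cd8b1 were 0.03 and 0.72 higher in GFPko cells and were not called. Eomes fell by 5.17 (adjusted p = 0.0191), and Klrd1, not above background on 1 of 2 GFPko arrays, was at least 40.7-fold lower (adjusted p = 0.0166). The mean of that list was 3.86 and 3.46 on the GFPko arrays against 5.58 and 5.70 on the CD25pos arrays. Of 4 kept B cell markers, only Cd79b was called, and it rose by 1.62 (limma adjusted p = 0.0215). Ms4a1 differed by 0.06, Cd74 by -0.23 and Ighm by -1.05. The mean of the B cell list was 4.96 and 5.13 on the GFPko arrays against 4.91 and 4.98 on the CD25pos arrays. The part of these markers in the differences of the members was not tested.

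IL-2 was followed by more Lif and Osm RNA in each of the 3 populations, most in GFPko cells. Lif stood at 8.49 after IL-2 against 5.42 without in GFPko cells, 8.41-fold higher and the 4th largest difference by size among 11939 genes in that pair. In GFPfoxp3 cells it stood at 6.40 against 5.00, 2.64-fold higher, and in CD25pos cells at 5.98 against 5.31, 1.60-fold higher. Osm was 2.56-fold higher after IL-2 in GFPko cells, 2.21-fold in GFPfoxp3 cells and 1.19-fold in CD25pos cells. The last of these differences, 0.25 log2 units, was within the residual SD of 0.302 for Osm. Lif and Osm were thus at least 2-fold higher in both populations that read the Foxp3 locus and under 2-fold in CD25pos cells. In single pairs, 2 of 6 members were at least 2-fold apart in GFPko cells, against 4.92% of all genes, 2 of 6 in GFPfoxp3 cells, against 1.95%, and 0 of 6 in CD25pos cells, against 1.35%. Each pair holds 1 array on each side, so these differences have no replicate check.

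Across the 3 populations, Lif was 1.72 log2 units higher after IL-2 (SE 0.494, limma adjusted p = 0.415) and Osm 0.92 (SE 0.246, adjusted p = 0.395), each higher in 3 of 3 pairs and neither called. Il6st was lower in 3 of 3 pairs, with differences of -0.33 in GFPko, -0.33 in GFPfoxp3 and -0.14 in CD25pos cells (mean -0.27, adjusted p = 0.455). This direction held only at the probe set used: at 1437303_at the differences were -1.07 in GFPko, 0.27 in GFPfoxp3 and 0.33 in CD25pos cells. Il6ra differed by 0.14 in GFPko cells, by -0.15 in GFPfoxp3 cells and by 0.71 in CD25pos cells (mean 0.23, adjusted p = 0.670). Stat3 and Socs3 averaged 0.10 and 0.03, with adjusted p-values of 0.725 and 0.961. At the unmarked Socs3 probe set 1416576_at the differences were 0.91 in GFPko, 0.27 in GFPfoxp3 and 0.45 in CD25pos cells, and their mean was 0.54 (adjusted p = 0.411 in the fit without marked probe sets). No member was called for IL-2, against 0.235% of all genes, while 3 of 6, namely Lif, Osm and Il6st, had an unadjusted p under 0.05, as did 10.6% of all genes, and the count was again 0 with an intensity trend and robust variance. With either GFPko array left out, which takes that pair out of the estimate, the mean difference of Lif was 1.04 and that of Osm 0.70.

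Other values moved with IL-2. The Actb 3′ minus 5′ difference was lower on each array after IL-2 than on its partner, at 2.76 against 3.69 in GFPko, 2.70 against 3.07 in GFPfoxp3 and 2.86 against 3.80 in CD25pos cells. Of 8 myeloid cell markers, 4 (Cd14, Itgam, Cd68 and S100a9) were not above background on any array. The mean of the list was 3.08 in GFPko cells after IL-2 against 2.66 without, 2.63 against 2.58 in GFPfoxp3 and 2.62 against 2.63 in CD25pos cells. Lyz2, the lysozyme gene of macrophages, was 5.71 in GFPko cells after IL-2 against 3.36 without, and S100a8, a neutrophil and monocyte gene, was 3.47 against 2.69. Csf1r, at 2.74 against 2.32, was below the median of both arrays, and Adgre1 was lower after IL-2, at 3.23 against 3.36. The part of these markers in the differences of Lif and Osm, which myeloid cells can also make, was not tested.

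**Figure D3:**
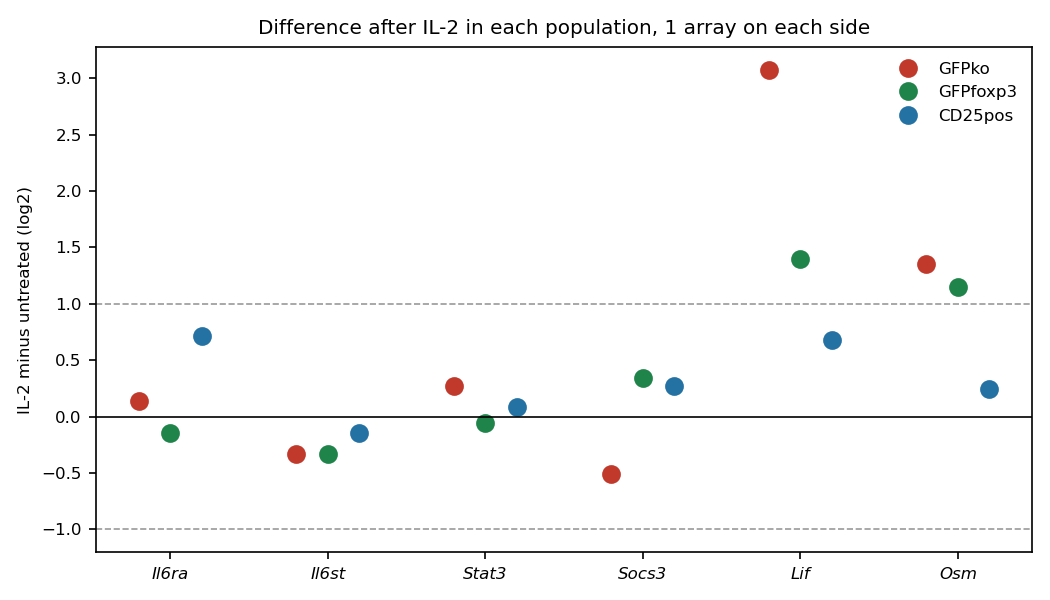
Log2 difference after IL-2 (vertical axis) of each of the 6 genes (horizontal axis) in GFPko, GFPfoxp3 and CD25pos cells, 1 array on each side, with dashed lines at 2-fold. Lif reaches 3.07 in GFPko, 1.40 in GFPfoxp3 and 0.68 in CD25pos cells, and the 3 Il6st differences at the probe set used are below 0, where those at 1437303_at are -1.07, 0.27 and 0.33.

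Against CD25neg cells, which are GFP- and lack CD25, Lif was the member that stood higher in all 3 untreated populations. Lif was 3.45-fold higher in GFPko, 2.58-fold in GFPfoxp3 and 3.18-fold in CD25pos cells. These comparisons share the single CD25neg array, where Lif lay at its lowest of the 10 groups, so they are not independent of each other. Socs3 was 2.21-fold higher in GFPko cells, but at the unmarked probe set 1416576_at the difference was 1.37-fold. It was 1.54-fold higher in GFPfoxp3 cells and differed by -0.32 log2 units in CD25pos cells. Il6ra was lower in all 3, with differences of -0.45 in GFPko, -0.20 in GFPfoxp3 and -1.03 in CD25pos cells. Members at least 2-fold apart were 2 of 6 in GFPko (6.73% of all genes), 1 of 6 in GFPfoxp3 (10.9%) and 2 of 6 in CD25pos cells (7.25%).

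Among the transduced cells, Il6ra stood apart on the array of the empty vector. Its level of 8.91 with MigR1_PDE3B_H801A was 8.23-fold that of 5.87 with MigR1_empty, and its level of 8.82 with MigR1_PDE3B was 7.71-fold that of the same array. By size the Il6ra differences were the 2nd and the 6th largest of 11939 genes. Both comparisons share the empty vector array, so they repeat a single low value. Between MigR1_PDE3B_H801A and MigR1_PDE3B the Il6ra difference was 0.09. The empty vector level is also below all 7 sorted arrays, whose Il6ra values ran between 9.16 and 10.19.

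Lif ran the other way, at 4.53 with MigR1_PDE3B_H801A and 4.48 with MigR1_PDE3B against 5.92 with MigR1_empty, 2.63-fold and 2.72-fold lower. Osm was lower by less, with log2 differences of -0.55 and -0.44. Il6st differed by 0.07 with H801A and 0.45 with PDE3B at the probe set used, but by 1.76 and 2.21 at 1437303_at. Socs3 differed by 0.28 and 0.18 at the probe set used and by -0.61 and -1.15 at 1416576_at. Stat3 differed by -0.28 and -0.23. The 2 probe sets of Il6st thus agreed in sign and not in size, and those of Socs3 disagreed in sign. Members at least 2-fold apart were 2 of 6 for MigR1_PDE3B_H801A over MigR1_empty (2.29% of all genes), 2 of 6 for MigR1_PDE3B over MigR1_empty (5.44%) and 0 of 6 for MigR1_PDE3B_H801A over MigR1_PDE3B (3.04%). Of the myeloid markers, Csf1r was 4.09 with MigR1_PDE3B_H801A and 2.48 with MigR1_PDE3B, against 4.34 with MigR1_empty. In the same order Lyz2 was 3.30 and 3.72, against 4.03, and S100a8 2.71 and 2.71, against 3.19. Adgre1 was 3.25 and 3.30, against 3.44. Cd68, not above background on any array, went the other way, at 2.96 and 2.87, against 2.41. The mean of that list was 2.94 and 2.79, against 3.08. The part of these markers was not tested.

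**Figure D4:**
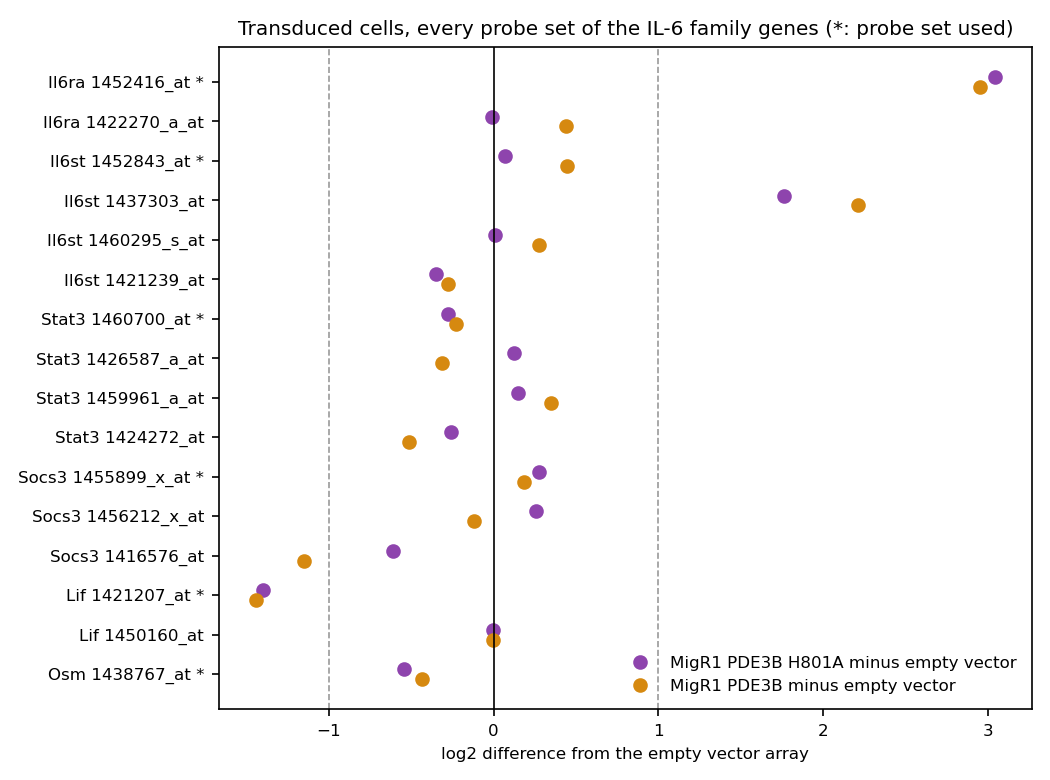
Log2 difference from the empty vector array (horizontal axis) of all 16 probe sets of the 6 genes (vertical axis), for MigR1 PDE3B H801A and MigR1 PDE3B, with dashed lines at 2-fold and an asterisk on the probe set used. Il6ra is at 3.04 and 2.95, Lif at -1.40 and -1.44, and the Il6st probe set 1437303_at at 1.76 and 2.21.

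At the probe sets used, the receptor chains and Stat3 were lower in the 3 transduced arrays than in all 7 sorted arrays. Il6ra ran from 5.87 to 8.91 with a median of 8.82 in transduced cells, against 9.16 to 10.19 with a median of 9.87 in sorted cells. Il6st ran from 8.62 to 9.07 (median 8.70) against 9.49 to 10.40 (median 10.07), and Stat3 from 9.31 to 9.58 (median 9.36) against 10.29 to 10.77 (median 10.43). The ranges of Socs3, Lif and Osm overlapped. Both statements depend on the probe set, since Stat3 was higher in transduced cells without overlap at 1459961_a_at and Socs3 was lower without overlap at 1416576_at, as described above. The count of 3 of 6 members without overlap compares with 42.8% of all genes. Sorted and transduced cells also differ in culture, transfer, host and the Actb 3′ minus 5′ difference, which cannot be told apart here.

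The rest of the pathway was read through 7 lists of 50 genes, of which 37 were kept. The family's other ligands were mostly dim. Il6 itself was not above background on any array (2.27 to 2.39), nor were Ctf1 and Il31. Ebi3, the subunit that IL-27 and IL-35 share, averaged 4.75 in GFPko, 8.28 in GFPfoxp3 and 6.40 in CD25pos cells, and reached 10.10 with MigR1_PDE3B_H801A and 10.05 with MigR1_PDE3B, against 10.99 with MigR1_empty. It fell by 3.53 in GFPko against GFPfoxp3 cells (limma adjusted p = 0.00835) and rose by 1.88 in GFPfoxp3 over CD25pos cells (adjusted p = 0.0219). Clcf1, a ligand of the CNTF receptor, was above background everywhere, at 6.59 in GFPko cells after IL-2 against 8.22 without, and was not called.

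The partner receptors of Lif and Osm were near the limit of the array. Osmr was not above background on any array, and Lifr only with MigR1_PDE3B (3.43). Il27ra, which pairs with gp130 to bind IL-27, was above background on all 10, between 8.98 and 10.57. None of the 3 kept family receptors was called by limma in any comparison. Of 5 kept kinases and adaptors, Jak2 and Ptpn11 fell in GFPfoxp3 against CD25pos cells, by 0.70 and 0.66. Jak2 encodes a kinase that gp130 can use, and Ptpn11 the phosphatase SHP-2, which docks on gp130.

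Of 6 kept brakes and shedding enzymes, Pias3, whose product inhibits STAT3, was called in GFPko against GFPfoxp3 cells (-1.06, adjusted p = 0.0222) and in GFPfoxp3 over CD25pos cells (0.88, adjusted p = 0.0274). Socs1, another cytokine signal inhibitor, was above background on only 2 arrays, at 3.91 in GFPko and 3.91 in GFPfoxp3 cells after IL-2, against 2.07 and 2.32 without. Of 4 other kept receptors that signal through STAT3, Il12rb1 (-2.44) and Il10ra (-1.83) fell in GFPko against GFPfoxp3 cells. Il12rb1 serves IL-12 and IL-23, and Il10ra IL-10. Of 5 other kept STAT genes, Stat2 (1.13) and Stat5b (0.73) rose in GFPfoxp3 over CD25pos cells.

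Of the 11 kept genes known to be induced through STAT3, 3 rose and 2 fell in GFPko against GFPfoxp3 cells. The cytokine genes Il17a and Il21 averaged 7.20 and 6.91 in GFPko cells and 3.11 and 3.01 in GFPfoxp3 cells, where each was below the array median on 1 of 2 arrays, and Fos rose by 2.17. The kinase gene Pim1 (-1.11) and Bcl3 (-0.69) fell. In the same comparison 3 of 4 kept B cell markers fell in GFPko cells, Cd74 by 3.11, Ighm by 2.03 and Cd79b by 1.65, while Ms4a1 differed by 0.09. The mean of that list was 4.96 and 5.13 on the GFPko arrays against 6.43 and 6.34 on the GFPfoxp3 arrays. The part of these markers was not tested. In GFPfoxp3 over CD25pos cells 4 rose, among them the kinase gene Pim1 (2.29) and the AP-1 partner gene Batf (1.45), and Il21 fell, with means of 3.01 in GFPfoxp3 cells, where it was not above background on 1 of 2 arrays, and 7.64 in CD25pos cells, at least 21.3-fold lower when that array is set at its median. In GFPko over CD25pos cells Il17a (3.64), Fos (3.01) and Junb (0.87) rose. Each of these genes is induced by other pathways too. Over all 7 lists together, 9 of 37 genes (24.3%) were called in GFPko against GFPfoxp3 cells, 12 of 37 (32.4%) in GFPfoxp3 against CD25pos cells and 5 of 37 (13.5%) in GFPko against CD25pos cells, beside the shares of all genes given above. For IL-2 none of the 37 was called by limma, against 0.235% of all genes, and none with an intensity trend and robust variance. An unadjusted p under 0.05 was found for 6 of the 37 and for 10.6% of all genes.

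The genes most like a member were sought over the 7 sorted arrays, by the root mean square difference of profiles centred on their own means, for members with a range of at least 1 there. Il6st and Stat3 had smaller ranges. For Il6ra the nearest were Kdm7a (0.104 log2 units), a histone demethylase gene, Jak1 (0.120), a kinase gene of cytokine receptors that include gp130, and Clk1 (0.126), a splicing kinase gene. Jak1, like Il6ra, was lowest among sorted cells in untreated CD25pos cells (10.50) and highest in CD25neg cells (11.25), but in transduced cells it was 8.62 with MigR1_PDE3B_H801A and 8.58 with MigR1_PDE3B, against 8.87 with MigR1_empty, without the low value that Il6ra had there.

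For Lif the nearest profile was that of Lta (0.316), the lymphotoxin alpha gene, followed by Slc35g1 (0.547) and Prelid2 (0.613). Lta stood at 11.06 in GFPko cells after IL-2 against 7.59 without, at 8.70 against 7.64 in GFPfoxp3 and at 7.75 against 7.14 in CD25pos cells. As for Lif, the difference after IL-2 was largest in GFPko and smallest in CD25pos cells. Lta was chosen by its likeness to Lif on these same arrays, so this order is no separate observation. For Osm they were Ppp1r3b (0.182), Tube1 (0.237) and Nfkbiz (0.268), the last encoding a nuclear regulator of NF-kB targets. Nfkbiz stood at 12.42 in GFPko cells after IL-2 against 11.70 without, at 11.96 against 10.80 in GFPfoxp3 and at 10.69 against 9.94 in CD25pos cells. In CD25pos cells Osm itself stood at 6.73 against 6.48. For Socs3 they were Gm8369 (0.162), Ift80 (0.193) and Osgin1 (0.194). A small distance says that levels varied alike over these 7 arrays and no more.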

How the data were processed

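Affymetrix mouse arrays measured the RNA of 10 groups of sorted CD4 T cells, 1 array per group. Per the labels' protocols, RNA was extracted with Stat-60 and amplified in 2 rounds with a MessageAmp II kit, which shortens the product from the 5′ end. The deposited values are log2 expression values of 45101 probe sets that the authors normalized over all arrays together, per the series' design text. The log2 scale was read from the range of the values, with software, summary and normalization methods not given in the sources used here.

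Gene names of probe sets came from the platform annotation, with symbols updated by Entrez ID: 34958 had 1 gene, 932 several and 9211 none listed. Genes were kept where at least 1 array reached its own median, and each was read by its brightest probe set, which left 11939 genes. Population and IL-2 were additive terms of a limma fit (lmFit and eBayes, limma 3.58.1, R 4.3.3) over 6 arrays, with 2 residual degrees of freedom and a prior of 2.23 degrees of freedom and SD 0.129. SEs and residual SDs are limma's moderated ones. The fit was tested on simulated data. For the other 9 comparisons, of 1 array against 1, differences of at least 2-fold were counted and no test was run. Named genes were all members, up to 3 called genes per pathway list and contrast by size, and the 3 nearest profiles of each member. Pim1 and Bcl3, called lower in GFPko against GFPfoxp3 cells, were named as well. Members and lists were chosen with earlier results of these data known. Alternatives were other scalings, filters, probe set rules and variance models, fewer arrays and each array left out. List genes without an annotated probe set of their own were not analysed here.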

Additional observations from a re-analysis of the deposited data

Results flagged for a closer look

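Socs3 differed in opposite directions between GFPko and GFPfoxp3 cells by IL-2 state. After IL-2 the log2 difference was -0.33 and without IL-2 it was 0.52, which are 0.85 apart. Seen as a response, Socs3 was different after IL-2 by -0.51 in GFPko cells and by 0.34 in GFPfoxp3 cells, the same 0.85 apart, since both statements rest on the same 4 arrays. At the unmarked probe set 1416576_at Socs3 was instead 0.91 higher after IL-2 in GFPko cells.

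Lif differed in opposite directions between GFPfoxp3 and CD25pos cells, by 0.42 after IL-2 and -0.30 without, which are 0.72 apart. With 1 array per group, these differences between states were not tested. No group had enough arrays to look for an array far from the others.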

How the results depend on the processing

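No paired analysis by replicate number was made, because each group holds a single array; population and IL-2 state are terms of the fit. Of 324 alternative values of single-pair member differences, 314 stayed on their side of 2-fold, 9 fell under it and 1 came past it. No difference of at least 2-fold changed sign. Sign changes of smaller single-pair differences were not counted. Of 330 alternative limma values of members, 292 kept direction and side of the threshold, 9 lost and 10 gained a call, and 19 changed sign. All 9 losses were of the only member call in the main fit, that of Il6st in GFPfoxp3 over CD25pos cells. No other member comparison had a call to lose. The sign changes were in 9 comparisons with a size of at most 0.29 and adjusted p of at least 0.554. When arrays were centred on their medians over kept genes, GFPko minus GFPfoxp3 became 0.046 for Il6ra and 0.033 for Il6st, and IL-2 minus untreated -0.0059 for Socs3. With the mean of all probe sets, GFPko minus GFPfoxp3 became 0.057 for Il6ra and IL-2 minus untreated -0.17 for Stat3. Without probe sets marked for cross-matching, GFPko minus GFPfoxp3 became -0.095 for Socs3. Leaving out each array in turn gave -0.39 to 0.18 for Il6ra and -0.31 to 0.50 for Socs3 in GFPko minus GFPfoxp3, -0.72 to 0.84 for Lif in GFPfoxp3 minus CD25pos, -0.063 to 0.65 for Il6ra and -0.089 to 0.17 for Stat3 in GFPko minus CD25pos, and -0.0048 to 0.42 for Il6ra and -0.12 to 0.31 for Socs3 in IL-2 minus untreated. The array left alone in its population is assumed there to vary like the others.

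Counts of all genes moved more. For GFPko minus GFPfoxp3 the 892 calls became 1373 with centring (48.6% of them higher, against 27.1%), 382 without the filter, 408 with only the 4 arrays of those populations, and 0 to 408 with an array left out. For GFPfoxp3 minus CD25pos the 1042 calls became 609 without the filter and 0 to 836 with an array left out (0 without either GFPfoxp3 array). For GFPko minus CD25pos the 416 calls became 858 with centring (51.6% higher, against 35.8%), 33 without the filter, 0 with 4 arrays only and 0 with any array left out. For IL-2 the 28 calls became 121 with centring, 53 with a filter on the mean, and 0 with quantile normalization, no filter, an intensity trend with robust variance, or any array left out. The mean of all probe sets gave fewer genes past 2-fold: 515 for GFPko and 573 for CD25pos over CD25neg cells, 293, 143 and 93 for IL-2 in GFPko, GFPfoxp3 and CD25pos cells, 156 for MigR1_PDE3B_H801A and 372 for MigR1_PDE3B over MigR1_empty, and 188 for H801A over PDE3B. Averaging takes in dim probe sets by construction, and with it the Lif difference after IL-2 in GFPfoxp3 cells was 0.68, under 2-fold. Centring also moved the share of higher genes past 2-fold to 63.4%, against 76.6%, for CD25pos over CD25neg, to 46.4%, against 59.3%, for IL-2 in GFPko cells, to 55.5%, against 40.5%, for MigR1_PDE3B_H801A and 50.4%, against 22%, for MigR1_PDE3B over MigR1_empty, and to 56.5%, against 75.8%, for H801A over PDE3B. The kept-gene medians behind these shifts differed by -0.22 between MigR1_PDE3B and MigR1_empty and by -0.15 between GFPko and GFPfoxp3. The cause of the other moves was not tested. Without replicate arrays, a difference in a single pair has no error of its own.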
